A study of Mus musculus with 2 samples.

Results

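The replication-dependent histone genes were taken as the protein-coding genes whose symbol begins with Hist1, Hist2, Hist3 or Hist4 in the GENCODE annotation of mm10, the mouse genome build used here. There were 67 such genes among 21951 protein-coding genes. Of these, 54 lie in the Hist1 cluster on chromosome 13, 10 in the Hist2 cluster on chromosome 3, 2 in the Hist3 cluster on chromosome 11 and 1, Hist4h4, on chromosome 6. By type, 6 encode the linker histone H1, and 18, 18, 12 and 13 encode the core histones H2A, H2B, H3 and H4. A further 3 genes with such a symbol are pseudogenes and were left out.

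These genes supply the histones that package newly copied DNA, and they are transcribed mainly in the S phase of the cell cycle. They are short, mostly without introns, and exist in many near-identical copies. Their mRNAs mostly end in a stem-loop rather than a poly(A) tail, and the stem-loop is bound by the protein encoded by Slbp. H2A and H2B genes often stand head to head and share the DNA between their starts.

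Etv4 and Etv5 are transcription factors of the ETS family, which recognise a GGAA core. Their binding was measured by ChIP-seq in EpRas cells, a single line of mouse mammary gland epithelial cells (EpH4) transformed by oncogenic H-Ras and grown in 4% serum. All cells had received 1 ng/ml TGF-β3, a cytokine that induces an epithelial-mesenchymal transition in them, for 1.5 h. The series has 1 library per antibody, a rabbit polyclonal for Etv4 and a mouse monoclonal for Etv5, each deposited as a list of enriched regions. Without replicates there was no test between the antibodies, and the lists hold no read counts, so the depth is unknown. The Etv4 list held 13636 regions (median 589 bp) and the Etv5 list 8297 (median 532 bp). Each interval below is an exact binomial (Clopper-Pearson) one at 95%. It covers counting error alone and treats genes as independent, although neighbouring histone genes often lie under the same region. Head-to-head genes also share promoter sequence. Untreated cells, an input library and expression values were not analysed here, and the cell type was therefore not checked against its markers.

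Nearly all histone genes carried an Etv4 region, whereas a minority carried an Etv5 region. Etv4 regions overlapped 63 of 67 by at least 1 bp (94%, interval 85.4 to 98.3%), beside 23.1% of all protein-coding genes. Etv5 regions overlapped 25 of 67 (37.3%, interval 25.8 to 50%), beside 14.7% of all protein-coding genes. All 25 of these were also under an Etv4 region. Of the 3234 protein-coding genes with an Etv5 region, 2278 had an Etv4 region too. Regions of both lists overlapped 37.3% of the histone genes, beside 10.4% of all protein-coding genes. Thus 38 histone genes had an Etv4 region alone (56.7%), none had an Etv5 region alone (0 of 67, which allows a share of up to 5.36%), and 4 had neither (5.97%). Over all protein-coding genes these shares were 12.7%, 4.36% and 72.6%, so the share with Etv5 alone lies within the bound for the histone genes.

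Histone genes are short, and a longer gene has more room for a region. Among the 678 other protein-coding genes of up to 1000 bp, 4.13% had an Etv4 region, 2.8% an Etv5 region and 2.21% both. The 48 histone genes of up to 1000 bp gave 44 with an Etv4 region and 16 with an Etv5 region. All 19 longer histone genes had an Etv4 region and 9 of them an Etv5 region.

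**Figure D1:**
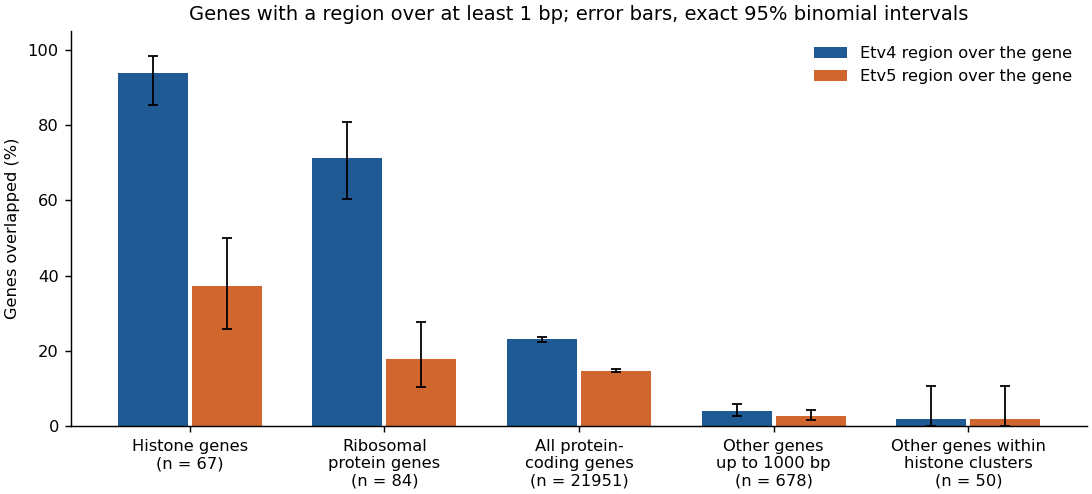
Percentage of genes with an Etv4 (blue) or Etv5 (orange) region over at least 1 bp, for the histone genes, cytosolic ribosomal protein genes, all protein-coding genes, other genes of up to 1000 bp and the other genes within the histone clusters; error bars are exact 95% binomial intervals. The histone genes reached 94% for Etv4 and 37.3% for Etv5, and the other genes within their clusters 2% for each.

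Etv4 regions mostly enclosed the histone genes entirely. For 48 of 67 (71.6%, interval 59.3 to 82%) the whole annotated gene lay inside Etv4 regions. This held for 0.296% of all protein-coding genes, or 65 genes, of which 48 were the histone genes and 17 were others, and for 0.295% of the other genes of up to 1000 bp. The median share of a histone gene covered by Etv4 was 100%. Enclosure was less frequent among histone genes with less repeated sequence, as given below. Counted over coding sequence, which runs from 309 to 669 bp in the histone genes, 60 of 67 were entirely inside Etv4 regions (89.6%), beside 0.437% of all protein-coding genes. Where an Etv5 region was present it covered a median of 28.4% of the gene, from 0.971% (Hist1h2bg) to 99.6% (Hist1h3g). With only the central 300 bp of each region, Etv4 counts fell from 63 to 37 genes and the median share covered was 1.02%. The count for Etv5 was then 19.

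**Figure D2:**
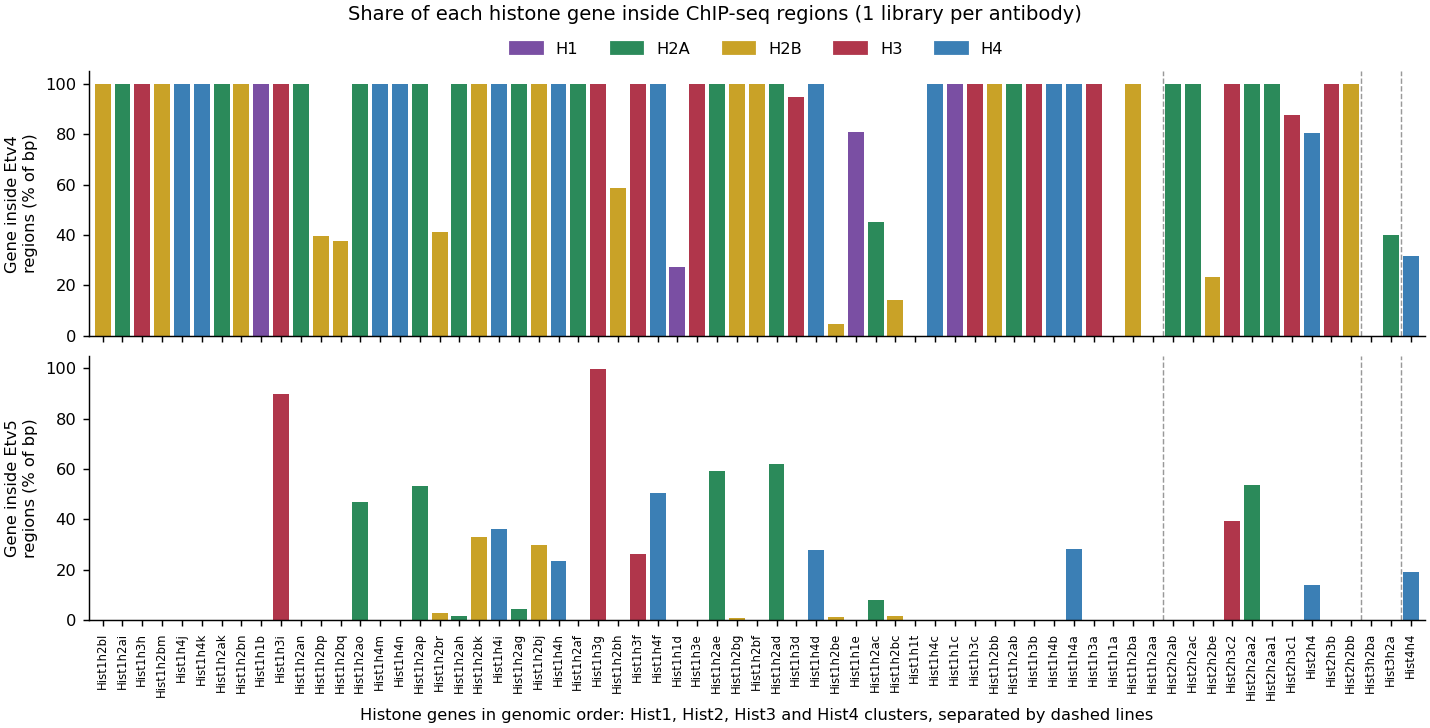
Share of each of the 67 histone genes inside Etv4 regions (top) and Etv5 regions (bottom), in percent of the gene's base pairs, in genomic order and coloured by histone type; dashed lines separate the Hist1, Hist2, Hist3 and Hist4 clusters. The Etv4 bars stand at 100% for 48 genes, and the Etv5 bars are absent for all H1 genes.

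The H1 genes encode the linker histone that sits where DNA enters and leaves the nucleosome, and only 6 such genes were present. Etv4 regions overlapped 4 of 6, with a median coverage of 54.1%. The interval, 22.3 to 95.7%, takes in the 23.1% of all protein-coding genes. Etv5 regions overlapped 0 of 6, which allows a share of up to 45.9% and so takes in the 14.7% of all protein-coding genes and the shares of H2A, H2B and H3. The share of H4, 53.8%, lies above it, with an interval (25.1 to 80.8%) that reaches below it. Hist1h1b and Hist1h1c lay wholly inside regions of 2104 bp and 2354 bp. Hist1h1e was covered over 80.9% of its length. Hist1h1d was covered over 27.3% of an annotated length of 7425 bp, by a region downstream of its annotated start. The remaining 2 H1 genes had no region. Hist1h1a encodes a somatic H1 and lay 0.944 kb from the nearest Etv4 region and 2.07 kb from the nearest Etv5 region. Hist1h1t encodes the testis form and lay 0.507 kb and 11.5 kb away.

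H2A and H2B pair up as a dimer in the nucleosome, and their genes were alike in Etv4 counts. Etv4 regions overlapped 17 of 18 H2A genes, 15 of them entirely, and 17 of 18 H2B genes, 10 of them entirely. Etv5 regions overlapped 8 H2A genes (44.4%, interval 21.5 to 69.2%), beside 14.7% of all protein-coding genes. The median coverage in these H2A genes was 50%. The most covered were Hist1h2ad (62.1%), Hist1h2ae (59.4%), Hist2h2aa2 (53.6%), Hist1h2ap (53.1%) and Hist1h2ao (46.9%). Lower shares were found in Hist1h2ac (7.98%, or 198 bp of an annotated 2482 bp), Hist1h2ag (4.33%) and Hist1h2ah (1.48%). Etv5 regions overlapped 6 H2B genes (33.3%), with a median coverage of 2.29%. The interval, 13.3 to 59%, takes in the 14.7% of all protein-coding genes. The shares covered were 33% in Hist1h2bk, 29.8% in Hist1h2bj, 2.96% in Hist1h2br, 1.62% in Hist1h2bc, 1.16% in Hist1h2be and 0.971% in Hist1h2bg. These shares depend on annotated length, which differs widely among the H2B genes. In base pairs, Etv5 covered 434 bp of Hist1h2be, 157 bp of Hist1h2bk, 141 bp of Hist1h2bc, 138 bp of Hist1h2bj, 112 bp of Hist1h2br and 6 bp of Hist1h2bg. Hist1h2be is annotated over 37455 bp with 2 Etv4 regions over 4.74% of it, the lowest coverage of any overlapped histone gene. The H2A gene without a region was Hist1h2aa and the H2B gene without one was Hist3h2ba.

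H3 and H4 form the tetramer at the centre of the nucleosome, and every one of their genes had an Etv4 region. Of 12 H3 genes, 10 were inside entirely, and the lowest value was 87.8% in Hist2h3c1. Of 13 H4 genes, 11 were inside entirely, with 80.4% in Hist2h4 and 31.8% in Hist4h4. Etv5 regions overlapped 4 H3 genes (33.3%). The interval, 9.92 to 65.1%, takes in the 14.7% of all protein-coding genes. The 4 genes and their coverage were Hist1h3g (99.6%, by 2 regions), Hist1h3i (90%), Hist2h3c2 (39.5%) and Hist1h3f (26.2%). Etv5 regions overlapped 7 H4 genes, the largest share of any type at 53.8%, although its interval from 25.1 to 80.8% took in the shares of H2A, H2B and H3. Coverage in these H4 genes was 50.6% for Hist1h4f, 36.2% for Hist1h4i, 28.4% for Hist1h4a, 27.9% for Hist1h4d, 23.4% for Hist1h4h, 19% for Hist4h4 and 14% for Hist2h4.

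All 10 Hist2 genes on chromosome 3 (chr3:96219865-96270132) had an Etv4 region, and 7 were enclosed, with 23.4% covered in Hist2h2be, 80.4% in Hist2h4 and 87.8% in Hist2h3c1. The enclosed genes were Hist2h2ab, Hist2h2ac, Hist2h3c2, Hist2h2aa2, Hist2h2aa1, Hist2h3b and Hist2h2bb. Etv5 regions overlapped 3 of the 10 (30%), Hist2h3c2, Hist2h2aa2 and Hist2h4. The interval, 6.67 to 65.2%, takes in the 14.7% of all protein-coding genes. In the Hist3 cluster, 40.2% of Hist3h2a lay in an Etv4 region of 1159 bp, Hist3h2ba lay 4.85 kb from the nearest, and neither had an Etv5 region. The single gene Hist4h4 had both, with an Etv4 region of 1360 bp and an Etv5 region of 1349 bp.

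The germ-cell members, Hist1h1t, Hist1h2aa and Hist1h2ba, encode testis-enriched histones. Only Hist1h2ba of the 3 had an Etv4 region, and none had an Etv5 region. The intervals, 0.84 to 90.6% for Etv4 and up to 70.8% for Etv5, take in the 23.1% and 14.7% of all protein-coding genes. The Etv4 region of Hist1h2ba (chr13:23933562-23934159) measured 598 bp and was the shortest Etv4 region over histone genes. It reached 3 bp past the start of Hist1h2ba and ended 0.302 kb short of the divergent Hist1h2aa.

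The 63 genes lay under 41 separate Etv4 regions, of which 24 touched 1 histone gene, 11 touched 2 and 6 touched 3. These regions were long. They measured 598 to 4620 bp with a median of 1838 bp (quartiles 1555 and 2629 bp), and 40 of 41 reached 1 kb (97.6%), beside 9.43% of the whole Etv4 list. Of the 122 Etv4 regions of at least 2 kb in the genome, 20 touched a histone gene. Histone regions also made up 17 of the 100 longest and 8 of the 50 longest. The 5 longest were a region of 4620 bp over Hist1h4i, Hist1h2ag and Hist1h2bj (chr13:22039816-22044435), one of 4154 bp over Hist1h4n, Hist1h2ap and Hist1h2br (chr13:21831158-21835311), and one of 3844 bp over Hist1h2bq, Hist1h2ao and Hist1h4m (chr13:21808852-21812695). They were followed by 3820 bp over Hist1h2bl, Hist1h2ai and Hist1h3h (chr13:21715162-21718981) and 3762 bp over Hist1h3c and Hist1h2bb (chr13:23744179-23747940).

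The Etv5 regions over histone genes were of ordinary length. There were 21, of which 16 touched 1 histone gene and 5 touched 2, with a median of 517 bp (330 to 1349 bp). Only 1 of 21 reached 1 kb (4.76%), beside 3.77% of the Etv5 list. In total the Etv4 regions over histone genes spanned 88.4 kb and the Etv5 regions 11.3 kb. All 21 Etv5 regions overlapped an Etv4 region (100%), beside 63.2% of the Etv5 list. Of the 41 Etv4 regions, 19 overlapped an Etv5 region (46.3%), beside 37.8% of the Etv4 list.

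Each deposited region also carries a number, from 1 to the length of the list, whose criterion is not stated. The Etv4 regions over histone genes had numbers between 242 and 3223 with a median of 346, and 39 of 41 fell in the first 10% of the list (95.1%). The exceptions were those of Hist3h2a (number 2824) and Hist1h2ba (number 3223). The Etv5 regions had numbers between 1984 and 7123 with a median of 4331, and none fell in the first 10%. With the first 50% of each list by number, 63 histone genes had an Etv4 region and 12 had an Etv5 region, beside 13% and 8.05% of all protein-coding genes.

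**Figure D3:**
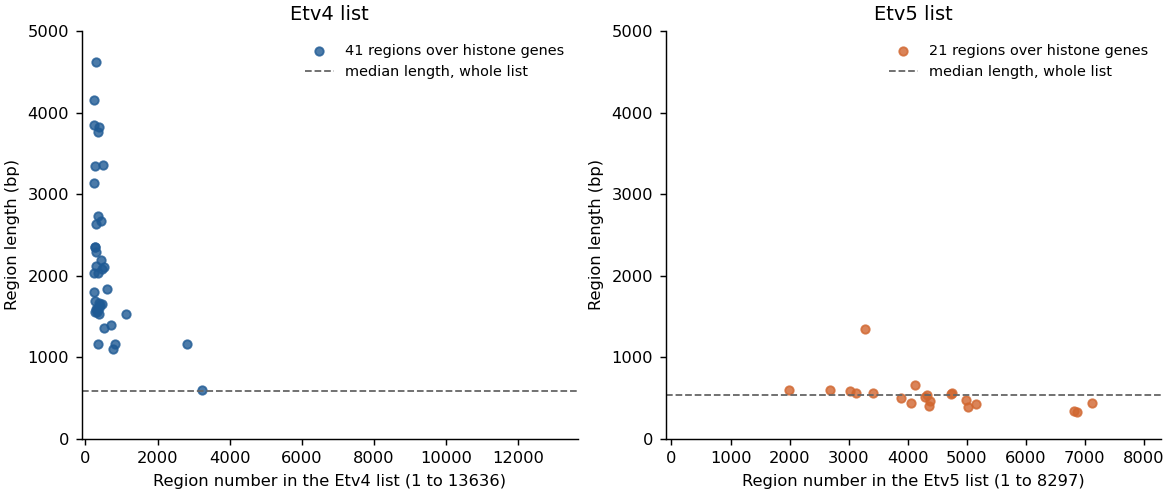
Length (bp) against region number for the 41 Etv4 regions (left) and 21 Etv5 regions (right) over histone genes, with 1 point per region; dashed lines mark the median length of each whole list (589 and 532 bp). The Etv4 points crowd at low numbers and long lengths, up to 4620 bp, and the Etv5 points spread between numbers 1984 and 7123 near the median length.

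The regions were placed differently along the gene. With all regions of a gene counted, Etv4 regions began 939 bp before the start of the histone gene and ended 548 bp past its end (medians over 63 genes). They held the start in 62 of 63, the exception being Hist1h1d, and ran past the end in 48. The start of Hist1h2be was held only by the region chr13:23620997-23623032, which also lies over Hist1h1e. The other Etv4 region of Hist1h2be lay downstream of that start. Etv5 regions began 303 bp before the start and ended 386 bp short of the gene end (medians over 25 genes). They ran past the end in 1 gene, Hist1h3g, by 146 bp. They held the start in 22 of 25, and the midpoint nearest to the start had a median position of 46 bp before the start. The 3 without were Hist1h2be, Hist1h3f and Hist2h3c2, whose Etv5 regions lay downstream of the annotated start. Measured per region to the nearest histone start, 17 of 21 Etv5 midpoints were within 250 bp, but 13 of 41 Etv4 midpoints were. Across positions, the share of histone genes inside an Etv4 region was highest from the start to 100 bp after it (92.5%). The share inside an Etv5 region was highest from 150 to 100 bp before the start (34.3%). Over all protein-coding genes the highest shares were 10% and 4.35%.

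**Figure D4:**
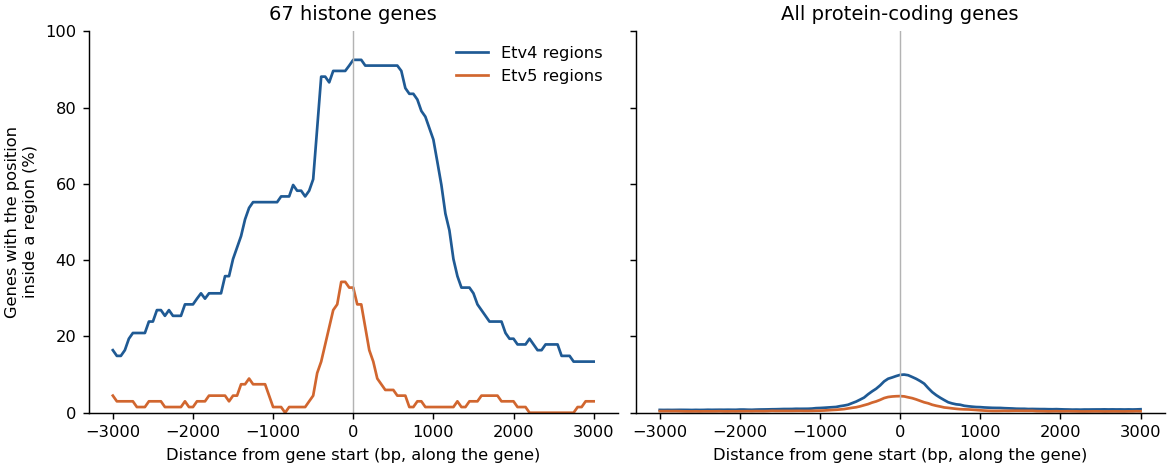
Percentage of genes whose sequence at each distance (bp, along the direction of the gene) from the annotated start lies inside an Etv4 (blue) or Etv5 (orange) region, for the 67 histone genes (left) and all protein-coding genes (right). In the histone genes Etv4 forms a plateau of 92.5% at the start that extends through the gene, and Etv5 a narrow peak of 34.3% just before the start.

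The head-to-head pairs allow both genes to be read from the DNA between them. There were 12 divergent pairs of histone genes with starts within 500 bp, separated by 175 to 305 bp (median 258.5). In 11 of 12 a single Etv4 region spanned both starts, and the exception was the germ-cell pair Hist1h2ba and Hist1h2aa. In 7 of 12 an Etv5 region lay between the starts or reached into that interval. How far that region reached into each gene varied between the pairs. It covered 418 bp of Hist1h2ae and 6 bp of Hist1h2bg, 355 bp of Hist1h2ad and none of Hist1h2bf, and 225 bp of Hist1h2ao and none of Hist1h2bq. In the pair of Hist1h2ap and Hist1h2br it covered 256 and 112 bp, and in the pair of Hist1h2ac and Hist1h2bc 198 and 141 bp. It reached further into the H2B gene in the pair of Hist1h2ah and Hist1h2bk, with 6 and 157 bp, and in that of Hist1h2ag and Hist1h2bj, with 21 and 138 bp.

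The DNA between the starts of 2 such pairs is shown because each carried an Etv5 region inside a longer Etv4 region. Letters were read from GRCm38 (mm10), plus strand, 5′ to 3′, at chr13:23571221-23571395 and chr13:23574197-23574380, with capitals marking CCAAT (or ATTGG, its reverse complement), TATAAA and the octamer ATTTGCAT.
Hist1h2ae-Hist1h2bg: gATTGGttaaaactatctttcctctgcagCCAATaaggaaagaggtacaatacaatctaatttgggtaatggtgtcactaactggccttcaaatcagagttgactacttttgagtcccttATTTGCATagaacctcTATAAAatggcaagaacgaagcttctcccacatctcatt
Hist1h2bf-Hist1h2ad: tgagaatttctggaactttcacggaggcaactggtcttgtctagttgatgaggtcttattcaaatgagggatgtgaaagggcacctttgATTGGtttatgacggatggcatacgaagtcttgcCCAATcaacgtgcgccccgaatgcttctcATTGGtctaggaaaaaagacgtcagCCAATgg
The first interval held 2 CCAAT, 1 TATAAA and 1 octamer, and the second held 4 CCAAT and neither of the other patterns.

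The 150 bases before the RefSeq start of 5 further genes (GRCm38.p6) show the promoters of genes with both regions (Hist1h3i and Hist1h4d), with an Etv4 region alone (Hist1h1c) and with neither (Hist1h1a and Hist1h1t). They lie at chr13:21783398-21783547 on the minus strand for Hist1h3i, and on the plus strand at chr13:23581418-23581567, chr13:23738657-23738806, chr13:23763518-23763667 and chr13:23695661-23695810 for the others in that order. Each is written 5′ to 3′ along its gene with the same patterns in capitals.
Hist1h3i: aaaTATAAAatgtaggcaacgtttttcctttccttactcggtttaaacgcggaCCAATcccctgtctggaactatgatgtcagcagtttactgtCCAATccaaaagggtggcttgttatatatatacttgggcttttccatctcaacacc
Hist1h4d: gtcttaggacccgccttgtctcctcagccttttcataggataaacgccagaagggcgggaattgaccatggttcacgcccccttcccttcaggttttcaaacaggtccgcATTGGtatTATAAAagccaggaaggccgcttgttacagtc
Hist1h1c: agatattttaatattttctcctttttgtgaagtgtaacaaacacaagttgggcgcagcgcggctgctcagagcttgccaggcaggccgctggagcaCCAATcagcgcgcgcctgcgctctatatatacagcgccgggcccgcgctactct
Hist1h1a: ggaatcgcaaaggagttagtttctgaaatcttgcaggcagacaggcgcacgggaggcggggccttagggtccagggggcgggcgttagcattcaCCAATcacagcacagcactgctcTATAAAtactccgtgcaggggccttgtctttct
Hist1h1t: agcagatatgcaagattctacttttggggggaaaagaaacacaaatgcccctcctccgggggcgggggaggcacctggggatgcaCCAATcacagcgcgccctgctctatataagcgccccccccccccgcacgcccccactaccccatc
The 2 promoters without a region each held a CCAAT, as did those with regions, and Hist1h1a also held TATAAA.

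Short patterns were searched on both strands in all histone promoters, taken from 250 bp before to 50 bp after the annotated start. One was an ETS pattern, spelled CCGGAAGT or CAGGAAGT. An AP-1 pattern was spelled TGACTCA, and its reverse complement was counted with it. The others were the CCAAT box, the TATAAA box and the octamer ATTTGCAT. None of these patterns contains another. The windows of head-to-head genes overlap, so the 67 promoters are not 67 separate sequences. The ETS pattern was in 0 of 67 histone promoters, which allows a share of up to 5.36%, beside 7.86% of all protein-coding promoters and 4.13% of those of the other genes of up to 1000 bp. Only the first of these shares lies above that bound. In the wider window of 500 bp on each side of the start, the ETS pattern was again in 0 of 67, beside 14.2% of all and 9.29% of the other short genes, both above the bound. The AP-1 pattern was also in 0 of 67 in the narrower window, beside 4.59% of all promoters, which lies below the bound, and 6.34% of those of other short genes, which lies above it. In the wider window it was in 7.46% (interval 2.47 to 16.6%) beside 12.1% and 14.6%. CCAAT was in 83.6% (interval 72.5 to 91.5%) beside 39% of all promoters and 46.5% of those of other short genes. TATAAA was in 55.2% (interval 42.6 to 67.4%) beside 12.6% and 33.6%, and the octamer was in 22.4% (interval 13.1 to 34.2%) beside 1.57% and 1.33%. In the RefSeq promoters of the 62 histone genes that had an entry, the ETS pattern was again in 0, which allows a share of up to 5.78%, beside 9.24% of all.

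In the narrower window, CCAAT was less frequent in H4 promoters than in those of the other core histones. CCAAT was in all 18 H2A and all 18 H2B promoters (interval 81.5 to 100% for each). It was in 11 of 12 for H3 (61.5 to 99.8%), in 4 of 13 for H4 (9.09 to 61.4%) and in 5 of 6 for H1 (35.9 to 99.6%). The octamer was in 7 of 18 H2A promoters (interval 17.3 to 64.3%), in 8 of 18 H2B promoters (21.5 to 69.2%) and in none of the others. Its intervals reach below the bounds for H1, H3 and H4 (45.9, 26.5 and 24.7%). The windows of head-to-head H2A and H2B genes overlap, so the same letters can be counted in both. TATAAA ran from 33.3% for H3 to 66.7% for H1 and H2A, and the intervals of all types overlapped. Between genes with both regions and genes with an Etv4 region alone, the intervals overlapped for these patterns. CCAAT was in 80% of the 25 with both (interval 59.3 to 93.2%) and in 84.2% of the 38 with Etv4 alone (interval 68.7 to 94%). TATAAA was in 48% (interval 27.8 to 68.7%) and 57.9% (interval 40.8 to 73.7%), and the octamer in 24% (interval 9.36 to 45.1%) and 21.1% (interval 9.55 to 37.3%).

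The same patterns were counted in the regions themselves. The ETS pattern was in 4 of 41 Etv4 regions over histone genes (9.76%, interval 2.72 to 23.1%), beside 11.6% of all Etv4 regions. It was in 0 of 21 Etv5 regions over histone genes, which allows a share of up to 16.1%, beside 8.21% of all Etv5 regions. The histone regions of Etv4 are longer than most, so the central 500 bp of each were also searched. The ETS pattern was then in 1 of 41 (2.44%) beside 10.2% of the list, and the AP-1 pattern in 1 of 41 (2.44%) beside 37.4%. With a count of 1, the lower share for ETS cannot be read as a difference. In whole regions AP-1 was in 7 of 41 (17.1%, interval 7.15 to 32.1%) beside 38.7% of the list. For Etv5 it was in 1 of 21 (4.76%) beside 35.8%, and that site lay near Hist4h4. The octamer was in 29.3% of the whole Etv4 regions over histone genes beside 3.37% of the list, and in 12.2% beside 2.48% in the central 500 bp. In the Etv5 regions it was in 19% beside 3.75%, and in the central 500 bp in 14.3% beside 3.29%. CCAAT was in 92.7% of the whole Etv4 regions over histone genes beside 54.2% of the list, but in the central 500 bp in 48.8% beside 48.2%. TATAAA was in 82.9% beside 26.9%, and in the central 500 bp in 29.3% (12 of 41) beside 21.7%. For Etv5, CCAAT was in 76.2% beside 52.4%, with 71.4% beside 51.3% in the central 500 bp. TATAAA was in 52.4% of the Etv5 regions beside 26.4%, with 52.4% beside 24.4% in the central 500 bp.

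The 4 ETS sites all lay downstream of the start of the nearest histone gene. A CAGGAAGT was found at chr13:21749568-21749575, 937 bp from the start of Hist1h4k, and another at chr13:23697544-23697551, 910 bp from that of Hist1h4c. A further one was at chr13:23739668-23739675, 860 bp from the start of Hist1h1c. The CCGGAAGT was at chr13:23684841-23684848, 642 bp from the start of Hist1h2bc. None of them was within 500 bp of a histone gene start. A match to these letters is a description of the sequence and not of binding.

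At the 3′ end, the histone stem-loop was sought in the 150 bp after the stop codon, since it marks the mRNAs of this class. It was found in 61 of 67 genes, beginning 22 to 59 bp after the stop codon (median 31). The form printed for Hist1h2bg was present in 41 genes, that of Hist1h1t in 9 and that of Hist1h4d in 8. The 6 genes without a match were Hist1h4j, Hist1h2an, Hist1h3g, Hist1h4b, Hist1h4a and Hist2h2be, and all of these had an Etv4 region. A missing match says only that none of the searched forms was in that window. All 4 genes without any region had the stem-loop. The elements of Hist1h2bg (chr13:23571838-23571863), Hist1h1t (chr13:23696520-23696545) and Hist1h4d (chr13:23581945-23581970), all on the plus strand, illustrate these forms, with the stem and loop in capitals.
Hist1h2bg: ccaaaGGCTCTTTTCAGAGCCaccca
Hist1h1t: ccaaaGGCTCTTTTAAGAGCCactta
Hist1h4d: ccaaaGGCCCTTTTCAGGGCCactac
The elements of Hist1h2bg and Hist1h4d were inside Etv4 regions.

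Within the clusters, most regions touched a histone gene and few touched the genes between them. The Hist1 cluster (chr13:21715763-23934851) held 36 Etv4 regions, of which 34 touched a histone gene, and 19 Etv5 regions, of which 17 did. Its widest stretch without a histone gene, 1487 kb with 40 other genes, separates 23 histone genes from 31. The 2 Etv4 regions that reached into it both touched a histone gene at its edge. Of the 50 other protein-coding genes between histone genes, 1 had an Etv4 region (2%, interval 0.0506 to 10.6%) and 1 an Etv5 region. The Etv4 gene was Trim17, whose annotated start is that of Hist3h2a, and the Etv5 gene was the zinc finger gene Zfp322a. None of the 36 vomeronasal receptor (Vmn1r) entries among them had a region, with the symbol Vmn1r216 entered more than once.

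Histone genes outside this class were compared next. Of 13 genes listed as replication-independent histone genes, 7 had an Etv4 region (53.8%, interval 25.1 to 80.8%) and 1 an Etv5 region, H2afv. The interval for Etv4 lies below that of the 67 histone genes, 85.4 to 98.3%. Only H2afx, which encodes the variant phosphorylated at DNA breaks, was enclosed (100%). H3f3b (38%) and H3f3a (3.96%) encode the replacement H3, and H1f0 (36.9%) a replacement H1. H2afj (31.1%), H2afz (7.51%) and H2afy2 (1.31%) encode H2A variants. H2afy, H1fnt, Cenpa, H1fx and H1foo had no region of either list.

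Of 14 genes for factors that transcribe histone genes or process their mRNAs, 3 had an Etv4 region (21.4%, interval 4.66 to 50.8%) and 4 an Etv5 region (28.6%, interval 8.39 to 58.1%). Both intervals take in the share of all protein-coding genes, 23.1% and 14.7%. Those with both were Slbp, which encodes the stem-loop binding protein (3.88% of the gene under Etv4 and 1.74% under Etv5), Cpsf2, a subunit of the cleavage complex (0.927% and 0.207%), and Ncbp1, a subunit of the cap-binding complex (1.06% and 0.506%). Casp8ap2 had an Etv5 region alone, and 10 genes had none, among them Npat, a coactivator of histone transcription.

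Cytosolic ribosomal protein genes are another highly transcribed family. Of these 84 genes, 60 had an Etv4 region (71.4%, interval 60.5 to 80.8%) and 15 an Etv5 region (17.9%), and none lay entirely inside Etv4 regions. Their 86 Etv4 regions had a median length of 585.5 bp, and 29.1% reached 1 kb, beside 97.6% of the 41 over histone genes. The ETS pattern was in 19.8% of these 86 (interval 12 to 29.8%). Of 1135 olfactory receptor genes, 4 had an Etv4 region and 3 an Etv5 region.

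Short reads from near-identical genes may not be placed uniquely, and how the authors treated such reads is not given in the sources used here. The assembly was therefore searched for repeats of each gene's own 36-base sequences. The repeated share ran from 0% (Hist1h1a and Hist1h1t) to 100% (Hist1h2ao, Hist1h2ap, Hist1h2bq, Hist1h2br and Hist2h2aa2). In 35 genes this share exceeded 50%, and all 35 had an Etv4 region, 14 an Etv5 region. In the other 32 genes, 28 had an Etv4 region (87.5%, interval 71 to 96.5%) and 11 an Etv5 region (34.4%, interval 18.6 to 53.2%). In the 18 genes with under 25%, 15 had an Etv4 region and 6 an Etv5 region. The whole gene lay inside Etv4 regions for 33 of the 35, 15 of the 32 (46.9%) and 5 of the 18 (27.8%). These groups also differed in gene length, with medians of 480, 866 and 1691.5 bp. All 4 genes without a region were among the 32, with shares of 0%, 0%, 9.01% (Hist1h2aa) and 34.7% (Hist3h2ba). The share of 87.5% in mostly single-copy genes stands beside 23.1% of all protein-coding genes.

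The same share was taken over the regions. The Etv4 regions over histone genes had a median of 23.3% repeated 36-base sequences, and 6 of 41 exceeded 50% (14.6%, beside 5.82% of the list). Among the long regions, the repeated share was 97.6% in the one over Hist1h4n, Hist1h2ap and Hist1h2br and 97.5% in the one over Hist1h2bq, Hist1h2ao and Hist1h4m. It was 0.628% in that of Hist1h1b, 1.7% in that of Hist2h4, 6.9% in that of Hist1h1c and 0% in that of Hist4h4. The Etv5 regions had a median of 39.4%, and 6 of 21 exceeded 50% (28.6%, beside 9.46%). Without regions above 50%, 51 histone genes had an Etv4 region, 18 had an Etv5 region and 16 had both. Across the 67 genes the repeated share and the share covered by Etv4 had a Spearman rho of 0.54, that with Etv5 0.17, and gene length and the share covered by Etv4 had −0.62. These points share regions and neighbouring sequence, and the values are descriptions. Whether placement of reads among copies contributed to the regions was not tested.

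**Figure D5:**
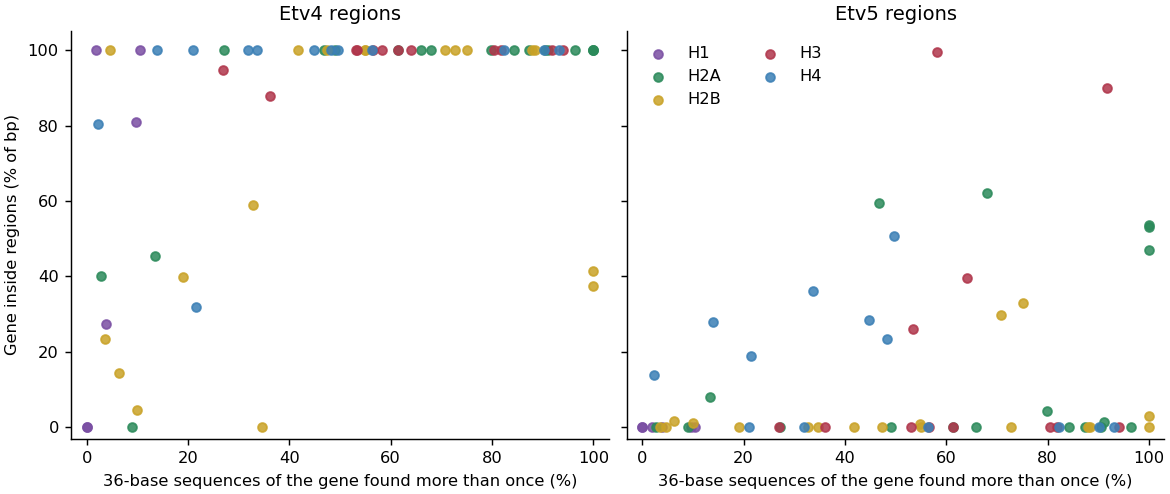
Share of each histone gene inside Etv4 (left) or Etv5 (right) regions, in percent of its base pairs, against its repeated share, the percentage of its 36-base sequences found elsewhere in the assembly too, 1 point per gene and coloured by type. Genes near 0% on the horizontal axis range from 0% to 100% covered by Etv4, and 33 of the 35 genes above 50% stand at 100% for Etv4.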

How the data were processed

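ChIP-seq of 1 library for Etv4 and 1 for Etv5, both from EpRas cells, was analysed, with samples grouped by the antibody in the labels. Libraries had 15 cycles of PCR. According to the study's methods, regions were called with CisGenome on each library alone (window 300 bp, p threshold 0.1), without an input library. Reads of 36 bp mapped to mm10 with bowtie2 are described for other libraries of the study, to which the ChIP methods refer. The submitters' processing notes name Bowtie and mm10. The deposited BED score is 1000 in every line and was not used, and read counts were not used here. Coordinates are printed counting from 1. The shortest region spans 299 bp, so ends may be inclusive and lengths uncertain by 1 bp.

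Regions were intersected with GENCODE M21 genes on GRCm38 (Python 3.11.15, scipy 1.17.1, pysam 0.24.0, pandas 2.3.3, numpy 2.4.6, matplotlib 3.10.9, numba 0.67.0). A gene counted as overlapped from 1 bp. The share of a gene covered is the bases inside regions over its annotated length. Repeated sequence was counted as 36-base sequences occurring more than once on either strand. RefSeq promoters of GRCm38.p6 were paired through older symbols for 62 of 67 genes. Scripts were tested on simulated data.

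The histone genes, comparison lists and alternatives were chosen with earlier results of these data known. Named with values were genes under both lists, genes on chromosomes 3, 11 and 6, the germ-cell genes, genes under the 5 longest Etv4 regions, genes with neither region, the most and least covered of each type, and comparison genes under both lists. Other named genes were chosen after their values were seen. No test was made between the 2 libraries. Alternatives changed the gene interval, the overlap required, the regions used, their width and the windows searched.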

Additional observations from a re-analysis of the deposited data

How the results depend on the processing

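With 1 library per antibody no replicate could be left out, depth is unknown and small differences between the lists cannot be read. No paired analysis was possible because there was only 1 library for each antibody, and no result came from a test. A count of histone genes was taken to move when it changed by over 1.5 times, and a share or median when it left the counting interval of the reported value, which is narrow for shares of all protein-coding genes. Of the alternatives chosen at the outset 26 values stayed and 32 moved, and of those added after seeing the data 13 stayed and 6 moved. The count of histone genes with an Etv4 region moved under the central 300 bp of each region, to 37, where genes with both were 14, with neither 25, the median share covered 1.02% and the shares of all protein-coding genes 21.6% (Etv4) and 14% (Etv5). Requiring 50% of the gene left 7 genes for Etv5 and 7 for both, 14 with neither, and 0.597% and 0.169% of all genes. The longer 50% of each list gave 12 genes for Etv5 and 12 for both, with 13% and 7.67% of all genes, and the first 50% by number again 12 and 12, with 13% and 8.05%. Without regions of mostly repeated sequence, both lists shared 16 genes and 14 had neither, with 22.4% and 14% of all genes. With genes extended by 500 bp the median share was 94.8%, and 24.7% and 16% of all genes were overlapped. With the gene start alone these were 9.92% and 4.35%, with coding exons (added later) 9.31% and 3.98%, and with equal numbers of regions 15.5% for Etv4. Over the 32 genes of mostly single-copy sequence (added later), 28 had Etv4, 11 Etv5 and 11 both, counts lower by construction from fewer genes. Their median share was 91.3%, which the smaller number of genes does not lower by construction. Among patterns, the central 500 bp gave 2.44% for ETS and 2.44% for AP-1 in Etv4 regions over histone genes, each 1 of 41 regions. The window of 500 bp on each side of the start gave 7.46% for AP-1 in promoters. These settings use less or more sequence or fewer regions by construction. RefSeq gene intervals, added later, gave the same 63, 25, 25 and 4 genes.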
